A study of Homo sapiens with 4 samples.

Results

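The genes described here are those whose symbol begins with LINC and a digit, the name given to long intergenic noncoding RNAs. They were all rows with such a symbol in the authors' table of H2O2-treated against untreated HCT116 cells, 104 of 16376 listed genes. HCT116 is a human colon cancer cell line, and hydrogen peroxide (H2O2) is an oxidant that crosses cell membranes. RNA-seq libraries were made after poly(A) selection from 2 samples of H2O2-treated HCT116 cells and 2 samples of untreated HCT116 cells, labelled Control. The labels give no dose, exposure time, genotype or separate cultures, so the spread between samples of a group may be technical. The authors' table holds group means of normalized counts, from which the whole reads of each library were recovered. The table does not tie a library to a replicate number, so the libraries of each group are called the deeper and the shallower one. Which mean is the H2O2 one was read from the word order in the table's name, and every direction given here rests on that reading.

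Long intergenic noncoding RNAs are transcribed by RNA polymerase II from their own loci between coding genes. Many are spliced and polyadenylated, and most are expressed at lower levels and in fewer cell types than mRNAs. A LINC symbol with a number is a placeholder for a locus without an assigned function. Some such loci were later renamed for a function or a neighbouring gene, and some were found to encode small proteins.

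Over the listed genes the H2O2 libraries held 7365032 and 6858809 reads and the Control libraries 7309731 and 6892854 reads. LINC genes took 0.157% and 0.145% of those reads in the H2O2 libraries, against 0.160% and 0.149% in the Control libraries. Of 8 colon epithelium markers 7 were listed, with summed means of 9219 normalized counts with H2O2 and 8301 in Control in the authors' deposited table. CDX1 was the marker not listed. Of 5 leukocyte, 5 fibroblast and 4 endothelial markers, 1, 3 and 1 were listed, with summed means of 10.6, 783 and 10.9 normalized counts with H2O2, against 9.10, 975 and 6.43 in Control, in the authors' deposited table. PTPRC, CD3E, COL1A2, DCN, PECAM1 and CDH5 were among those not listed. No colon marker and 1 fibroblast marker passed in the authors' deposited table, beside 7.19% of all listed genes. All samples are of the HCT116 line, and the part of other cell types in the results was not tested. Counts are relative to the other genes of a library, and in these bulk samples fewer cells with a transcript and less of it per cell cannot be told apart.

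Of the 104 LINC genes, 10 were higher and 11 lower with H2O2 at an adjusted p under 0.05 in the authors' deposited table, and 83 did not pass. That is 20.2% of LINC genes, beside 7.19% of all listed genes called by the same test. By direction, 9.62% of LINC genes were higher and 10.6% lower, beside 2.58% and 4.62% of all listed genes in the authors' deposited table. Above a mean of 100 normalized counts lay 4 of the 11 fallen genes (LINC00641, LINC00969, LINC00342 and LINC00173) and 2 of the 10 risen ones (LINC00493 and LINC00909). Under a mean of 20 normalized counts lay 1 fallen gene and 5 risen ones. limma, run on the recovered libraries on the log2(normalized count + 1) scale, called 10 LINC genes, 4 higher and 6 lower, beside 4.1% of all listed genes (1.52% higher and 2.58% lower). All 10 were among the authors' calls. With 1 library left out at a time, limma called between 7 and 23 LINC genes. Without the deeper H2O2 library these were 6.73% of LINC genes beside 1.73% of all listed genes, and without the shallower H2O2 library 11.5% beside 3.13%. Without the deeper Control library they were 15.4% beside 8.52%. Without the shallower Control library the share of LINC genes was no larger than that of all listed genes, 22.1% beside 22.2%. LINC00641, LINC00969, LINC00342 and LINC00085, all lower, were called in all 4 of those fits, and without the deeper H2O2 library no LINC gene was called higher.

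**Figure D1:**
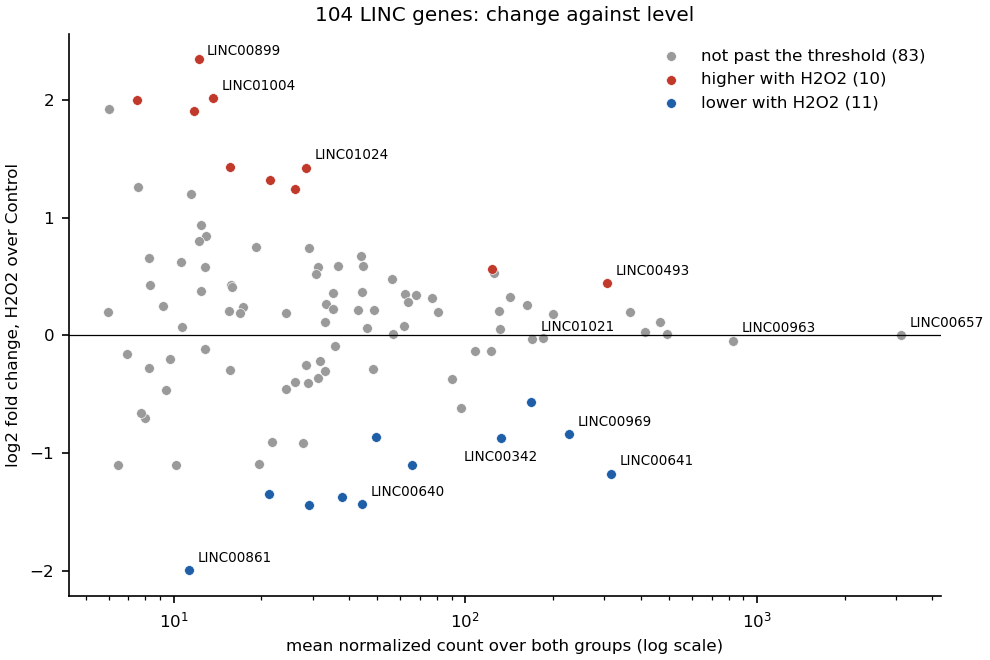
Log2 fold change of H2O2 over Control from the authors' deposited table (vertical axis) against the mean normalized count over both groups (horizontal axis, log scale) for 104 LINC genes, each a point. The 10 higher genes reach up to a mean of 307 normalized counts, with 5 of them under 20, and the 11 lower genes up to 316, with 1 under 20, while LINC00657, at a mean of 3120, lies at 0.

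LINC00641, a noncoding RNA encoded on chromosome 14, had the smallest adjusted p of the LINC genes. It had 193 and 194 reads in the H2O2 libraries, deeper library first here and below, against 477 and 409 reads in the Control libraries. Both H2O2 libraries lay below both Control libraries, and the libraries within each group were close. The authors' deposited table gives an H2O2 mean of 0.443 times the Control mean (adjusted p = 1.18e-11), and the gene fell by 1.17 ± 0.13 on the log2 scale in limma (SE, 2 libraries per group, adjusted p = 1.52e-04). None of the 75-base stretches (words) of its longest transcript occurred in another gene's transcript.

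LINC00969, listed by RefSeq as MIR570HG, the host gene of microRNA 570, had 186 and 140 reads with H2O2, against 330 and 260 reads in Control. It fell by 0.84 ± 0.16 on the log2 scale (SE, limma, adjusted p = 0.00709). LINC00342 had 99 and 89 reads with H2O2, against 172 and 175 reads in Control, and fell by 0.86 ± 0.17 on the log2 scale (SE, limma, adjusted p = 0.00849). The libraries of each group did not overlap for either gene. Reads of LINC00342 are uncertain, with 14.7% of its words found in other genes as well, and LINC00969 was not matched to the transcript set, so its sharing is unknown.

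LINC00085 had 20 and 22 reads with H2O2, against 49 and 61 reads in Control. RefSeq lists it as SPACA6, a coding gene for a sperm membrane protein needed for fertilization. It fell by 1.33 ± 0.28 on the log2 scale (SE, limma, adjusted p = 0.0137). LINC00176, which RefSeq lists as the coding gene C20orf204, had 13 and 18 reads with H2O2, against 46 and 40 reads in Control. It fell by 1.41 ± 0.31 on the log2 scale (SE, limma, adjusted p = 0.0181). When the deeper H2O2 library was left out it missed the threshold (limma, adjusted p = 0.0939). LINC00202-1, now FAM238C, had 53 and 31 reads with H2O2, against 106 and 75 reads in Control. It fell by 1.10 ± 0.25 on the log2 scale (SE, limma, adjusted p = 0.0245). When the shallower H2O2 library was left out it missed the threshold (limma, adjusted p = 0.135).

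The other 5 fallen genes passed in the authors' deposited table and not in limma with all 4 libraries. LINC00640 had 25 and 23 reads with H2O2, against 39 and 90 reads in Control, so its Control libraries differed from each other more than the nearer one differed from H2O2. LINC00861 had 4 and 5 reads with H2O2, against 26 and 11 reads in Control. LINC01001 had 14 and 10 reads with H2O2, against 39 and 23 reads in Control. In the authors' deposited table the H2O2 means of these 3 genes were 0.370, 0.250 and 0.392 times those of Control, on few reads, and LINC01001 shares 74.4% of its 75-base words with transcripts of other genes. LINC00894 had 38 and 32 reads with H2O2, against 76 and 53 reads in Control, with 33.7% of its words shared. LINC00173 had 129 and 141 reads with H2O2, against 216 and 190 reads in Control. In both cases the H2O2 libraries lay below the Control libraries, and the fits were just short of the threshold in limma (adjusted p = 0.0721 and 0.0562).

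Among the risen genes, LINC00899 had the largest ratio. It had 25 and 16 reads with H2O2, against 3 and 5 reads in Control, a 5.09-fold rise in the authors' deposited table. The rise was 2.11 ± 0.46 on the log2(normalized count + 1) scale (SE, limma, adjusted p = 0.0168), which understates ratios at so few reads. LINC01004 had 27 and 17 reads with H2O2, against 7 and 4 reads in Control, and rose by 1.84 ± 0.43 on the log2 scale (SE, limma, adjusted p = 0.0253). LINC01024, renamed MALINC1 for its association with mitosis, had 43 and 40 reads with H2O2, against 13 and 18 reads in Control, and rose by 1.39 ± 0.31 on the log2 scale (SE, limma, adjusted p = 0.0199). LINC00523 had 20 and 17 reads with H2O2, against 6 and 4 reads in Control, and rose by 1.73 ± 0.43 on the log2 scale (SE, limma, adjusted p = 0.0342). In all 4 genes the H2O2 libraries lay above the Control libraries. Without the deeper H2O2 library none of them passed in limma (adjusted p = 0.170, 0.247, 0.0676 and 0.208), and LINC00523 also did not without the shallower one (0.115).

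The other 6 risen genes passed in the authors' deposited table alone. LINC00475 had 48 and 26 reads with H2O2, against 13 and 18 reads in Control. LINC01003 had 42 and 20 reads with H2O2, against 16 and 9 reads in Control. For both, the H2O2 libraries lay above the Control libraries but differed more from each other than the nearest libraries of the groups did. LINC00565, known as SWINGN, an RNA named for binding the SWI/SNF complex and for the GAS6 enhancer, had 28 and 18 reads with H2O2, against 7 and 10 reads in Control. LINC00452 had 14 and 10 reads with H2O2, against 3 and 3 reads in Control. The ratios of these 4 genes lay between the 2.37-fold of LINC00475 and the 4.02-fold of LINC00452 in the authors' deposited table. LINC00909, now ZNF407-AS1, had 166 and 129 reads with H2O2, against 98 and 102 reads in Control. LINC00493 had 363 and 343 reads with H2O2, against 248 and 275 reads in Control. These last 2, the risen genes with the most reads, had the smallest ratios of the risen genes. The authors' deposited table gives a ratio of 1.48 for LINC00909 and 1.36 for LINC00493, both just past the threshold (adjusted p = 0.0482 and 0.0485).

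**Figure D2:**
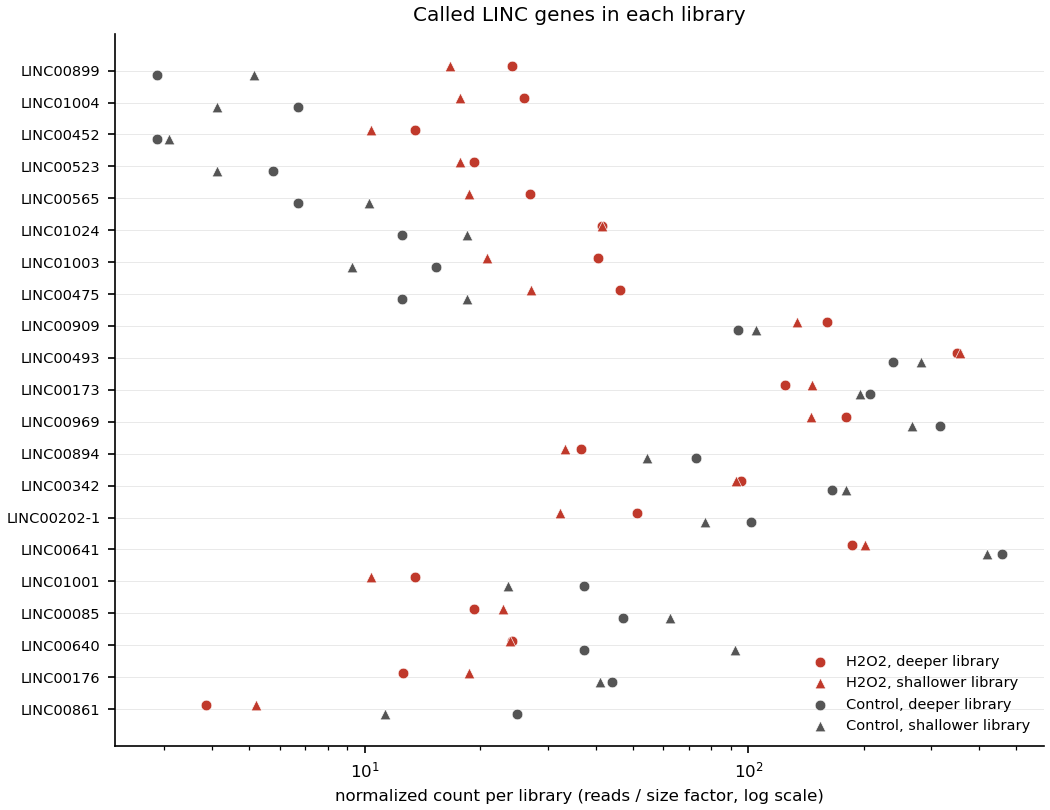
Normalized count (reads divided by the library's size factor, log scale) of each of the 21 called LINC genes in the 2 H2O2 libraries (red) and the 2 Control libraries (grey), with circles for the deeper and triangles for the shallower library of a group. Genes run from the largest rise, LINC00899, at the top to the largest fall, LINC00861, at the bottom. In all 21 the groups do not overlap, beside 51.9% of all listed genes, but the 21 were called on these same libraries.

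Promoter sequences, from 250 bases before to 50 bases after the annotated start, were taken from RefSeq on GRCh38.p14 and exist in that table for 74 of 104 LINC genes and 15 of the 21 called ones. That is 71.2% of members, too few for a check of the whole list, so shares of LINC promoters with a motif cover those 74 alone. Shown are the promoter of LINC00641, which had the smallest adjusted p, and those of the risen genes called in both tests that the table holds. Both strands were searched for TGANTCA (AP-1), TGACGTCA (CRE), TTCNNGAA (core of a heat shock element), TGACNNNGC (antioxidant response element), GCGGGGGCG (EGR) and CACGTG (E-box), with matches in capitals.
LINC00641 (chr14:21205454-21205753, minus strand): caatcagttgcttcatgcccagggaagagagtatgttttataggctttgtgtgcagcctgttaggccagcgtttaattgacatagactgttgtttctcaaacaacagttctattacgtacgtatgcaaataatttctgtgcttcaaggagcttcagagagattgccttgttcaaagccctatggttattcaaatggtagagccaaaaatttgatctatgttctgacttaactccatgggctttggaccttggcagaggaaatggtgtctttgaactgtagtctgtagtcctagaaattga
LINC00899 (chr22:46044819-46045118, minus strand): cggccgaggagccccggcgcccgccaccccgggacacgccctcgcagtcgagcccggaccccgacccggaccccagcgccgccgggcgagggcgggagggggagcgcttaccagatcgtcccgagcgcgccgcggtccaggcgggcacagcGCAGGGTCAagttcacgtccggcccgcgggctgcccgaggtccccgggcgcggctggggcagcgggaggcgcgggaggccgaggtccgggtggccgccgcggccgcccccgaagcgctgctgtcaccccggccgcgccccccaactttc
LINC01024 (chr5:140107963-140108262, minus strand): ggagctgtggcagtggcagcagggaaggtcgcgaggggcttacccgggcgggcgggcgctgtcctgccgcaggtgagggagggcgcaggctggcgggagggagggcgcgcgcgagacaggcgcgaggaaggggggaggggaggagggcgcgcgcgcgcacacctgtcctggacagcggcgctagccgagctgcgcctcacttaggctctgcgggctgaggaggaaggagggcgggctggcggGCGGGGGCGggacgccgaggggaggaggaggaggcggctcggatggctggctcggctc
LINC00523 (chr14:100657018-100657317, plus strand): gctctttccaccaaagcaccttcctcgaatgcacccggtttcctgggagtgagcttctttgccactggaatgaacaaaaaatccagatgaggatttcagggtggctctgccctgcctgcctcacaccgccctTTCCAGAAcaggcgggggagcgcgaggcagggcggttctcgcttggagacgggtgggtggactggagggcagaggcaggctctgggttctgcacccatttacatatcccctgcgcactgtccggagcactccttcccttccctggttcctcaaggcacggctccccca
The fallen LINC00641 held none of the 6 motifs. The LINC00899 window held an antioxidant response element match, starting 99 bases before the start and read on the opposite strand, a motif found in 13.3% of all 35116 promoters of the table. The LINC01024 window held an EGR match 8 bases before the start, a motif found in 5.07% of all promoters. The LINC00523 window held a heat shock element core 118 bases before it, found in 7.74%. Over the 74 LINC promoters the shares were 28.4% for the antioxidant response element, 6.76% for EGR and 8.11% for the heat shock element core. Among windows not shown, the fallen LINC00202-1 held an antioxidant response element match. The fallen LINC00640 and LINC00894 held a heat shock element core and the fallen LINC01001 an AP-1 match. The risen LINC00565 held an antioxidant response element match and the risen LINC00493 an E-box. No match lay in the fallen LINC00085, LINC00176 and LINC00173 or in the risen LINC01003 and LINC00909. These matches are letters in a window and say nothing of binding.

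The groups did not overlap for 65 of 104 LINC genes, 41 with H2O2 above and 24 with H2O2 below, which is 62.5% beside 51.9% of all listed genes. The Control libraries differed from each other by a median of 0.35 in absolute log2 of LINC genes and 0.20 of all listed genes, and the H2O2 libraries by 0.23 and 0.13. LINC genes were read less deeply, with a median mean of 31.3 normalized counts beside 198 over all listed genes. The median log2 fold change of the 104 genes was 0.19 in the authors' deposited table, beside 2.9e-04 over all listed genes. It was 0.38 for the 37 LINC genes of mean under 20, 0.11 for the 45 of mean 20 to 100 and 0.02 for the 22 above. Over all listed genes at those levels it was 0.045, -0.048 and 0.0054.

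The share of calls was larger among LINC genes than over all listed genes at each of 3 levels of expression. Under a mean of 20 normalized counts 6 of 37 LINC genes (16.2%) were called in the authors' deposited table, beside 7.3% of all listed genes. Between 20 and 100 these were 9 of 45 beside 6.53%, and above 100 they were 6 of 22 (27.3%) beside 7.39%. Other noncoding classes were read from the symbol. In the authors' deposited table, of 370 antisense RNAs with symbols ending in AS and a number 16 (4.32%) were called, 11 higher and 5 lower, and of 2017 clone-named transcripts 130 (6.45%), 64 higher and 66 lower. Of 14 small RNA host genes with SNHG symbols 3 (21.4%) were called in the authors' deposited table. limma called 9.62% of LINC genes, 2.70% of the antisense RNAs, 3.87% of the clone-named transcripts and 2 of the 14 SNHG genes (14.3%). By either test the SNHG share was above that of LINC genes, on few genes. These shares are descriptions of lists that were compared after results of these data were known, and the difference between them was not tested.

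**Figure D3:**
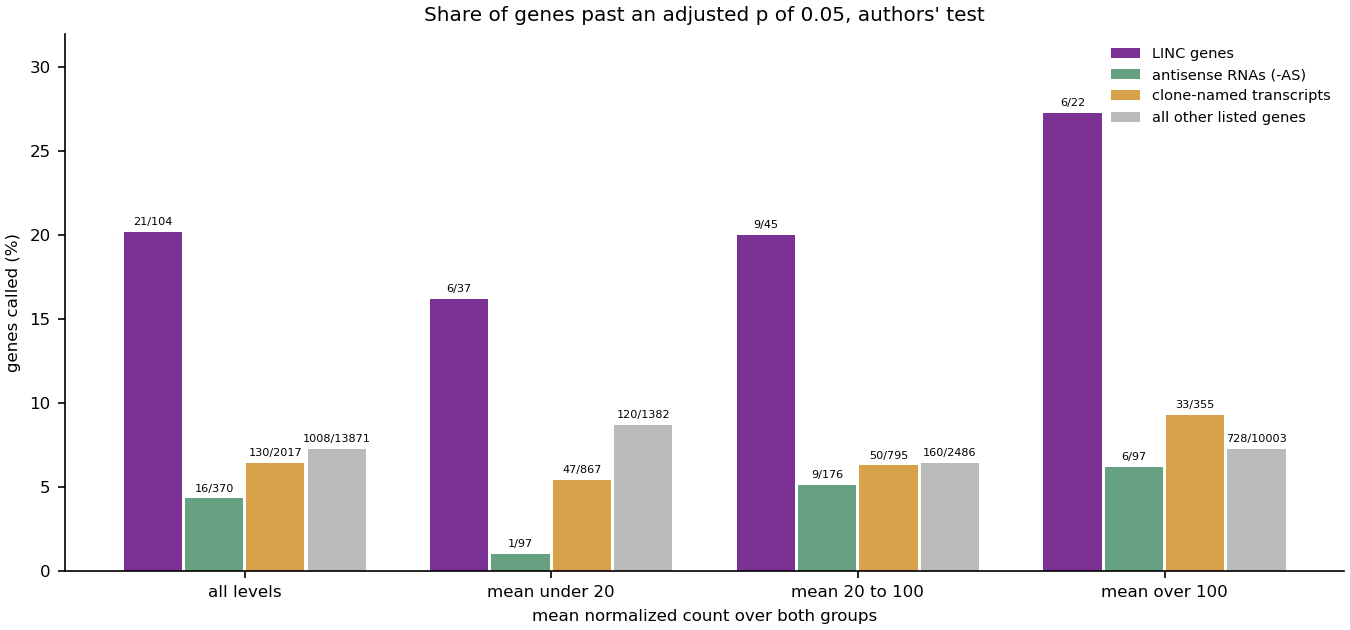
Percent of genes past an adjusted p of 0.05 in the authors' deposited table, for LINC genes, antisense RNAs, clone-named transcripts and all other listed genes, over all levels and by mean normalized count, with the number called and the class size above each bar. The LINC bar stands at 20.2% over all levels and is the highest of these 4 bars at each level. The 14 SNHG genes, 21.4% of them called, are not drawn.

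For levels of different LINC genes, normalized counts were divided by the kilobases of annotated exon, which left out 6 of the 104 genes without a matched length, LINC00969 among them. LINC00657, or NORAD, an abundant cytoplasmic RNA known for its induction by DNA damage and for binding PUMILIO proteins, was the highest of the other 98, at 585 normalized counts per kilobase with H2O2 and 584 in Control. It held 28.9% of all reads on LINC genes. LINC00493 followed at 322 and 237 normalized counts per kilobase, LINC00998 at 208 and 181, and LINC00659 at 140 and 111, each H2O2 value first. Further down the order neighbours did not stand apart, since LINC01021, LINC00263 and LINC00963 all averaged between 62.1 and 65.2 normalized counts per kilobase in both groups.

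**Figure D4:**
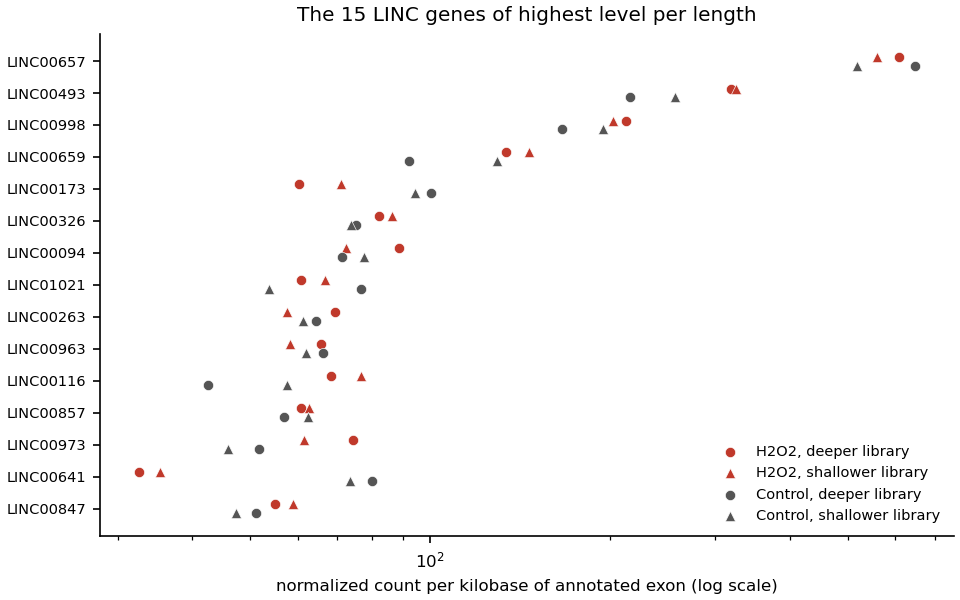
Normalized count per kilobase of annotated exon (log scale) in each H2O2 library (red) and Control library (grey) for the 15 LINC genes of highest level per length. LINC00657 lies above all others in all 4 libraries, while LINC00641 and LINC00173 are the 2 of the 15 with both H2O2 libraries below both Control libraries.

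NORAD did not pass and its groups overlapped. It had 3377 and 2870 reads with H2O2, against 3612 and 2700 reads in Control, and differed by 0.01 ± 0.12 on the log2 scale (SE, limma, adjusted p = 0.973). Its reads are uncertain, since 20.6% of its words are found in other genes as well. Because this most abundant LINC RNA is known for its PUMILIO sites, the motif TGTANATA was counted on the sense strand of the longest GENCODE 29 transcript of 98 LINC genes. NORAD, with a transcript of 5339 bases, held 15 matches or 2.81 per kilobase. The next densest transcript was that of LINC00886 with 0.605 per kilobase, from 2 matches, and 15 of the 98 genes held any match. By count LINC00632 came next, with 10 matches in a transcript of 21221 bases, or 0.471 per kilobase. Bases 1129 to 1248 of the NORAD transcript hold 2 matches, printed in capitals.
LINC00657: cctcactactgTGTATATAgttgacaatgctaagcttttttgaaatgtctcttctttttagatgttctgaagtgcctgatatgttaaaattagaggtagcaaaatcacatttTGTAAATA

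Of 20 LINC genes listed for earlier reports in cancer or stress 9 were in the table and the other 11 were not analysed here. None of the 9 passed in the authors' deposited table or in limma, beside 7.19% and 4.1% of all listed genes. At an unadjusted p under 0.05 in the authors' deposited table stood 1 of the 9, beside 19.6% of all listed genes. The median log2 fold change of the 9 was 0.26, with a range of -0.03 to 0.59 in the authors' deposited table. LINC01021, or PURPL, an RNA induced by p53 in colorectal cells, had 166 and 169 reads with H2O2, against 211 and 138 reads in Control, and the Control libraries lay on either side of the H2O2 libraries. LINC00152, or CYTOR, which is raised in many tumours, had 183 and 173 reads with H2O2, against 141 and 158 reads in Control. Its groups did not overlap, and it differed by 0.27 ± 0.16 on the log2 scale (SE, limma, adjusted p = 0.359), and other genes hold 15.7% of its words. LINC00511 had 433 and 403 reads with H2O2, against 429 and 401 reads in Control, a difference of 0.02 ± 0.12 on the log2 scale (SE, limma, adjusted p = 0.929). LINC00941 had the largest difference of the 9, at 57 and 50 reads with H2O2, against 43 and 29 reads in Control (limma, adjusted p = 0.206). In the authors' deposited table the log2 fold change was 0.36 for LINC00460, 0.32 for LINC00662, 0.26 for LINC00337 and -0.03 for LINC00467.

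RefSeq matched 102 of the 104 symbols to 1 gene and 2 symbols to a pair of genes. It lists 90 as long noncoding RNA, 12 as protein coding and 2 as transcribed pseudogenes. Of the 12 that are now coding genes, 1 was higher and 2 lower in the authors' deposited table, beside 2.58% higher and 4.62% lower of all listed genes, with a median log2 fold change of -0.10. LINC00493, the higher one, encodes SMIM26, a small integral membrane protein. LINC00116 encodes mitoregulin (MTLN), a microprotein of the inner mitochondrial membrane, and had 145 and 151 reads with H2O2, against 91 and 115 reads in Control. Its groups did not overlap, but it missed the threshold of both tests (adjusted p = 0.0706 in the authors' deposited table and 0.117 in limma). LINC00998 encodes the small membrane protein SMIM30, and had 418 and 369 reads with H2O2, against 329 and 360 reads in Control (limma, adjusted p = 0.387). LINC00094, or BRD3OS, has 21.4% of its words in other genes, BRD3 among them. It had 550 and 417 reads with H2O2, against 446 and 452 reads in Control, with overlapping groups. LINC00086 and LINC00087 each match the paired genes SMIM10L2A and SMIM10L2B, and neither passed.

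In RefSeq 6 LINC genes are named as divergent transcripts of a coding gene and 4 as antisense to one. None of the 10 coding partners passed in the authors' deposited table, beside 7.19% of all listed genes, on few genes. LINC00894, the divergent transcript of EOLA2, was lower, while its partner, listed as CXorf40B, had means of 249 normalized counts with H2O2 and 244 in Control in the authors' deposited table. LINC00909, antisense to ZNF407, was higher, while ZNF407 had means of 64.2 normalized counts with H2O2 and 93.7 in Control in the authors' deposited table (adjusted p = 0.139). The strand setting of the authors' counting is not given, so reads of a gene and its antisense partner may not have been told apart.

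Neighbours were the nearest listed coding genes on either side, with no limit on distance, so unlisted genes may lie between. For the 21 called LINC genes these were 39 genes, of which 4 passed in the authors' deposited table, beside 7.19% of all listed genes. DIO3, which encodes the deiodinase that inactivates thyroid hormone, was the 1 that moved in the direction of its LINC neighbour. It had 65 and 45 reads with H2O2, against 29 and 26 reads in Control, beside LINC00523, and differed by 0.97 ± 0.26 on the log2 scale (SE, limma, adjusted p = 0.0527). TRIB1, a pseudokinase gene beside LINC00861, had 1653 and 1360 reads with H2O2, against 990 and 931 reads in Control, a rise of 0.66 ± 0.11 on the log2 scale (SE, limma, adjusted p = 0.00377). The TRIB1 libraries did not overlap, and its direction was opposite to that of LINC00861. KMT2C, a histone H3 lysine methyltransferase gene beside LINC01003, had 425 and 477 reads with H2O2, against 889 and 554 reads in Control. TMX1, which encodes a thioredoxin-related membrane protein of the endoplasmic reticulum, lies beside LINC00640 and had 434 and 424 reads with H2O2, against 355 and 285 reads in Control. KMT2C was lower and TMX1 higher in the authors' deposited table, each opposite to its LINC neighbour. KMT2C fell by 0.62 ± 0.16 on the log2 scale (SE, limma, adjusted p = 0.0438). Its Control libraries differed from each other more than the nearer one differed from H2O2. TMX1 rose by 0.44 ± 0.13 and missed the threshold (SE, limma, adjusted p = 0.0645).

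For all the other called LINC genes no neighbour passed, and some of them are given here. LINC00641 lies between ZNF219 and HNRNPC, an RNA-binding protein gene, and the authors' deposited table gives log2 fold changes of -0.12 for ZNF219 and 0.17 for HNRNPC. LINC00452 and LINC00565 both lie between GAS6, a ligand of TAM receptor kinases, and RASA3, a RAS GTPase-activating protein gene. GAS6 had 916 and 960 reads with H2O2, against 1054 and 1090 reads in Control, and RASA3 had 348 and 316 reads with H2O2, against 360 and 358 reads in Control (limma, adjusted p = 0.394 and 0.690). LINC00899 lies between WNT7B and the nuclear receptor gene PPARA, for which the authors' deposited table gives log2 fold changes of 0.13 and -0.29. In 18 of the 41 pairs of a called LINC gene and a neighbour the signs of the log2 fold changes were the same.

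**Figure D5:**
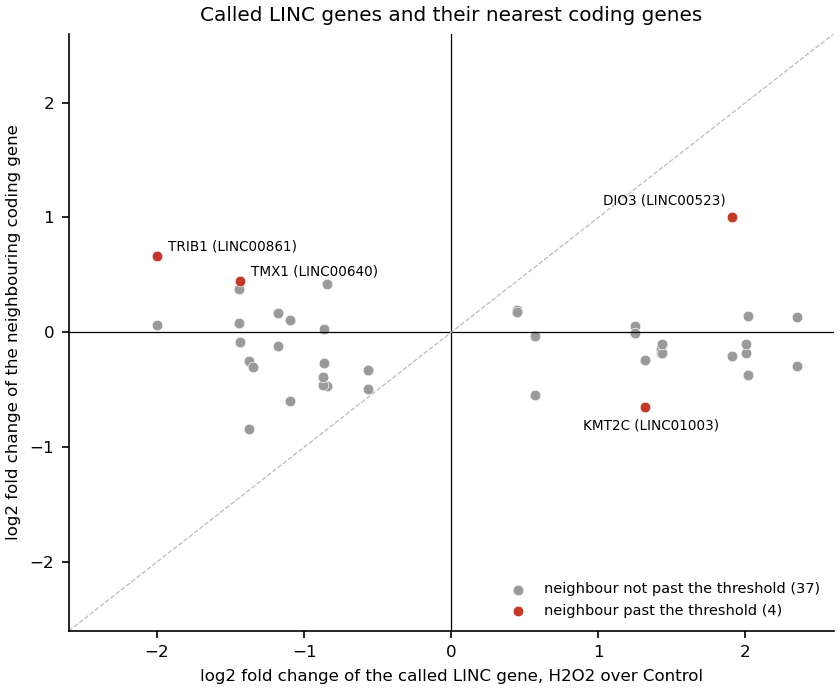
Log2 fold change of the nearest listed coding gene (vertical axis) against that of the called LINC gene (horizontal axis), H2O2 over Control in the authors' deposited table, for 41 pairs, with the dashed line marking equal change. The 4 neighbours past the threshold are named, and DIO3 alone of them lies on the same side of 0 as its LINC gene.

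Of 98 LINC genes matched to transcripts, 21 shared over 10% of their 75-base words with other genes, among them the called LINC01001, LINC00894, LINC00342 and LINC00493. The exons of the 10 risen genes covered a median of 3375 bases, those of 10 matched fallen genes 4792 bases and those of 78 matched genes that did not pass 3285 bases. Among the 83 genes that did not pass, log2 fold changes ran from -1.10 to 1.93 in the authors' deposited table, 54 above 0 and 29 below, with 12 (14.5%) at an unadjusted p under 0.05, near the 13.4% of all listed genes that did not pass. LINC00854, now the coding gene CCDC200, had 73 and 36 reads with H2O2, against 35 and 33 reads in Control, and its deeper H2O2 library stood above the other 3. LINC00243 had 40 and 33 reads with H2O2, against 23 and 21 reads in Control, without overlap (adjusted p = 0.214 in the authors' deposited table). The following genes were picked after their values were seen. LINC00568, at the upper end, had 10 and 9 reads with H2O2, against 2 and 3 reads in Control. LINC00174 was the nearest to the threshold, with 81 and 72 reads with H2O2, against 113 and 123 reads in Control (adjusted p = 0.0585 in the authors' deposited table).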

How the data were processed

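Tools named, per the submitters' processing notes, are STAR, HTSeq, DESeq, Trim Galore, FastQC and CASAVA 1.8, on hg19. Which step each did, the annotation and the strand setting were not given in the sources used here. Per the file headers, the deposited table holds a signal (the authors' mean normalized counts by group), the ratio of group means as a fold, its log2, and the authors' p-value with an adjusted p. The adjusted p equals a Benjamini-Hochberg adjustment over the 16376 genes. Calls use the authors' adjusted p with a threshold of 0.05. The authors' test was kept as the main one, because the table has no columns per sample, and no count test was run on the recovered reads.

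Each group mean was solved for 2 whole reads per gene, divided by the library's size factor, within a tolerance of 1e-09, and all 16376 genes had 1 solution in each group. limma 3.58.1 in R 4.3.3, with a mean-variance trend, was run on log2(normalized count + 1) over all genes, which gave the standard errors and the second adjusted p. Recovery and limma were tested on simulated data. Leaving out 1 library assumes the lone library of its group to vary like the other group.

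RefSeq on GRCh38.p14 gave names, classes and neighbours, and GENCODE 29 lengths and shared words. Coordinates are given only for promoters, since the table's build differs. Named genes are LINC genes called by either test, the 10 of highest mean, the 5 largest rises and falls of mean at least 20, the listed earlier reports and the nearest listed coding genes. Other LINC genes were named after their values were seen. The members and lists were chosen with earlier results of these data known.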

Additional observations from a re-analysis of the deposited data

How the results depend on the processing

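The labels number the replicates, but the table does not say which recovered library has which number, so both possible pairings were fitted with a replicate block in limma, chosen after seeing the data. With the deeper libraries paired it called 19 LINC genes (8 higher, 11 lower) and 1125 of all genes, and with the deeper paired with the shallower library 26 (12 and 14) and 1641, both with a median of 0.18. At most 1 of these pairings can be that of the labels, and nothing in the labels says that the numbers mark shared cultures. At an adjusted p under 0.01 the authors' test gave 11 LINC genes, 3 higher and 8 lower, and 642 of all listed genes. limma gave 10 LINC genes (4 higher, 6 lower, median 0.18) and 671 of all genes. With a pseudocount of 5 it gave 10 (4 and 6, median 0.15) and 685, and scaled by library totals 10 (4 and 6, median 0.16) and 669. Over genes of mean at least 20, of which fewer LINC genes remain, it gave 7 (1 higher, 6 lower, median 0.059) and 553. With 1 library left out limma called 7 to 23 LINC genes, 0 to 12 higher and 7 to 11 lower, with medians of 0.079 to 0.19, and 284 to 3641 of all genes. Fits without a Control library take their spread from the H2O2 libraries alone. The next subsets were chosen after seeing the data. Without members sharing over 10% of words 17 LINC genes were called (9 higher, 8 lower, median 0.18), and without those now listed as protein coding 18 (9 and 9, median 0.20). The 17 include LINC00969, whose sharing is unknown. Of the 77 LINC genes known to share at most 10%, 9 were higher and 7 lower, beside 7.19% of all listed genes called. Signs near 0 turned. Scaled by totals LINC00263 stood at -0.0099 and LINC00657 at -0.0063. Over fits with a library left out LINC00263 ran from -0.13 to 0.14, LINC00657 from -0.15 to 0.17, LINC00094 from -0.038 to 0.25, LINC01021 from -0.27 to 0.24, LINC00963 from -0.13 to 0.039 and LINC00467 from -0.22 to 0.19. No called LINC gene changed sign. Leaving out a library could not turn the sign of a called gene, since the groups did not overlap in any of the 21. The cause of the other changes was not tested. Depth limits the sparse genes, where a few reads set the ratio.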
